A study of Homo sapiens with 4 samples.

Results

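The 37 genes of the human mitochondrial chromosome were followed across 2 liver cancer cell lines with and without PF-429242. They were taken as every gene annotated on that chromosome (symbols starting MT-) in GENCODE release 29 on GRCh38, and they make up 37 of the 32479 genes of the expression table: 13 protein-coding genes, 2 ribosomal RNA (rRNA) genes and 22 transfer RNA (tRNA) genes. The 4 groups were HepG2, a line derived from a human hepatoblastoma, and PLC/PRF/5, a human hepatoma line, each either left untreated and collected at 24 h or kept for 24 h in 20 uM PF-429242, a compound that inhibits site-1 protease. The labels give all 4 as wild type, and nothing more about vehicle or passage. With 1 library in each group, differences between libraries have no replicate check and are given without a p-value. In the treated PLC/PRF/5 library the genes of a contiguous stretch of the mitochondrial chromosome, from MT-TH through the origin of the numbering to MT-TL1, were low. That stretch was known from earlier results of these data, so it is described apart and without a test.

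Mitochondrial DNA is a compact circle without introns. Both strands are transcribed as long precursors, mostly from promoters in the control region beside MT-TF, and tRNA genes punctuate the precursors, so that cutting out the tRNAs at both of their ends frees the rRNAs and mRNAs between them. The mRNAs encode membrane subunits of respiratory complexes I, III, IV and of ATP synthase (complex V), while the rRNAs and tRNAs serve the mitochondrial ribosome that translates them. All other respiratory subunits, and the whole machinery of mitochondrial transcription and RNA processing, are encoded in the nucleus. Liver cells are rich in mitochondria, and mitochondrial transcripts usually take a sizeable share of their RNA.

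In the annotation 28 of the genes lay on the plus strand and 9 on the minus strand, namely MT-ND6 and 8 tRNA genes. Of the 36 neighbouring pairs in map order, 20 had no base between them and 5 overlapped. The overlaps were MT-ATP8 with MT-ATP6 by 46 bases, MT-ND4L with MT-ND4 by 7, MT-TI with MT-TQ by 3, and MT-TC with MT-TY and MT-ATP6 with MT-CO3 by 1 each. Below, mRNAs are counted by protein-coding gene, so overlapping genes are counted apart even where they may share a transcript. The sources used here do not say how fragments in shared bases were assigned or whether the libraries kept strand, so RNA of a gene cannot be told from RNA of the opposite strand. Of the 13 protein-coding genes, 6 ended in an incomplete stop codon, which polyadenylation completes in the mRNA, and 7 in an encoded one.

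The edges of the stretch low in treated PLC/PRF/5 are shown first, because on each side a gene that was above its control in that library lies beside a tRNA gene whose fragments were few or missing. The sequences are those of the GENCODE 29 transcripts on GRCh38, plus strand. At the first edge, the last 40 bases of MT-ND4 (chrM:12098-12137) end in an incomplete stop codon, in capitals, and the next base begins MT-TH, the tRNA for histidine (chrM:12138-12206), whose anticodon is in capitals.
MT-ND4: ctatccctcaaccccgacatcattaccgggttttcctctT
MT-TH: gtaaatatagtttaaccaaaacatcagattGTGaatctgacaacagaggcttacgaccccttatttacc
At the other edge lies MT-TL1, a tRNA for leucine (chrM:3230-3304), again with its anticodon in capitals. MT-ND1 follows after 2 bases, and its first 40 bases (chrM:3307-3346) are shown with the start codon in capitals.
MT-TL1: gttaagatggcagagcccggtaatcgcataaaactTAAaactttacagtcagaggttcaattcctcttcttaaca
MT-ND1: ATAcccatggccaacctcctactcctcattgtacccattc
Inside the stretch, the tRNA genes for valine (MT-TV, chrM:1602-1670) and threonine (MT-TT, chrM:15888-15953) had no fragment in that library, and are shown in the same way.
MT-TV: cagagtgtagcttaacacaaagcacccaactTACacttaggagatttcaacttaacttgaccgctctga
MT-TT: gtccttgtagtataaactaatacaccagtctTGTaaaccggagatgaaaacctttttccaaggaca
Outside it, the tRNA gene for lysine (MT-TK, chrM:8295-8364) is shown because it had fragments in PLC/PRF/5 only.
MT-TK: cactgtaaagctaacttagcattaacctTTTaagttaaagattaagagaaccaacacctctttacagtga
The last 61 bases of MT-ATP8 (chrM:8512-8572) show the longest overlap, with the bases that also belong to MT-ATP6 in capitals.
MT-ATP8: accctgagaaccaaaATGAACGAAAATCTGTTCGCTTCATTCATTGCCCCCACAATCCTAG

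Levels are given in FPKM, the fragments of a gene divided by its length and by the counted total of the library. The libraries held 16722204 (HepG2 control), 20350701 (treated HepG2), 21387301 (PLC/PRF/5 control) and 16982560 (treated PLC/PRF/5) counted fragments, and all 37 genes gave whole fragments in every library. For a tRNA gene of 70 bases, 3 fragments correspond to 2.56, 2.11, 2.004 and 2.52 FPKM in that order. Ratios of FPKM carry 95% exact conditional binomial (Clopper-Pearson) intervals of the fragments, which take in only the error of counting and describe these libraries rather than the conditions. All 8 hepatocyte markers looked up were expressed, with a summed level of 7530.4 and 6444 FPKM in control and treated HepG2 and 2101 and 2494 FPKM in control and treated PLC/PRF/5. The 4 fibroblast markers found summed to 0.0172 to 0.400 FPKM, the 3 endothelial markers to 0.869 to 1.37 FPKM, and of the blood markers LYZ stood at 179 to 504 FPKM and CD3E at 0 in 3 libraries and 0.0207 FPKM in treated PLC/PRF/5. The part of the changing hepatocyte markers in the mitochondrial values was not tested.

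Mitochondrial genes took a larger share of the counted fragments in each treated library than in its control. In HepG2 the 37 genes held 16.6% of fragments without and 27.6% with the compound, and in PLC/PRF/5 21.3% without and 28.2% with it. The exact Clopper-Pearson interval of the first share was 16.61 to 16.65%, and the others were of like width. Protein-coding genes made up 13.98%, 22.6%, 17.96% and 27.6% of fragments, and tRNA genes 0.0549%, 0.0843%, 0.101% and 0.141%. The rRNA genes went the other way in PLC/PRF/5, at 2.59%, 4.90%, 3.26% and 0.447%. As a share of mitochondrial fragments alone, rRNA was 15.6% and 17.7% in control and treated HepG2 and 15.3% and 1.59% in control and treated PLC/PRF/5. More mitochondrial RNA per cell and less nuclear RNA per cell cannot be told apart in such shares.

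The shares by respiratory complex followed the map. Complex I, with 7 mitochondrial genes, held 6.93% and 11.4% of counted fragments in control and treated HepG2, and 8.90% and 11.3% in PLC/PRF/5. For complex IV, whose 3 catalytic-core subunits are all mitochondrial, the shares were 5.03% and 7.92% in HepG2, and 6.18% and 12.9% in PLC/PRF/5. ATP synthase, with 2 genes, stood at 1.23% and 2.01%, and at 1.56% and 3.25%. Complex III, with cytochrome b as its single mitochondrial subunit, was at 0.797% and 1.26% in HepG2 but at 1.31% and 0.202% in PLC/PRF/5. The 3 complex IV genes and both ATP synthase genes lie outside the stretch, the complex III gene inside it, and complex I has 5 genes outside and 2 inside.

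**Figure D1:**
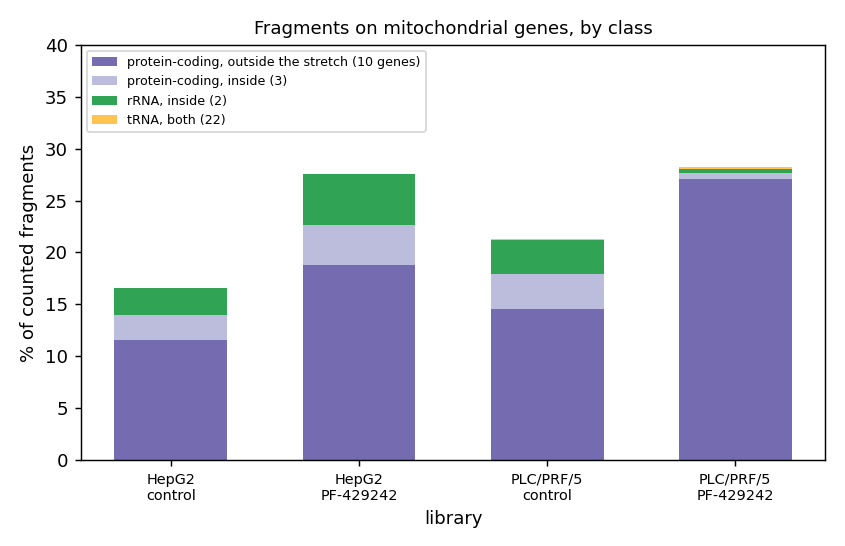
Stacked bars give the percentage of counted fragments on mitochondrial genes in each of the 4 libraries, split into protein-coding genes outside and inside the stretch, rRNA genes and tRNA genes, with 1 library per bar. The whole bars reach 16.6%, 27.6%, 21.3% and 28.2%, and in treated PLC/PRF/5 nearly all of the bar is protein-coding genes outside the stretch.

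Mitochondrial genes filled most of the top of the expression range. Of the 20 genes with the highest FPKM, 15 were mitochondrial in treated PLC/PRF/5 and 16 in each of the other libraries. MT-ND4, a core subunit of complex I, ranked 1 in those libraries and 5 in treated PLC/PRF/5, where MT-CO3, a core subunit of complex IV, ranked 1. In the HepG2 control the levels ran from MT-ND4 (21084 FPKM) through MT-CO1 (18246), MT-ATP6 (16793), MT-CO2 (15434), MT-CO3 (14760), MT-RNR2 (14380.3), MT-ND4L (11239), MT-ND1 (10516), MT-ND2 (8692), MT-ND6 (7601), MT-CYB (6983), MT-ND5 (6672), MT-ND3 (4871), MT-ATP8 (4414) and MT-RNR1 (3672). Levels per length thus differed several-fold among the protein-coding genes. For MT-ATP8 with MT-ATP6 and MT-ND4L with MT-ND4, which overlap, the assignment of shared fragments is not known, so their levels need not be those of separate RNAs. With 1 library per group, neighbours in this order cannot be separated beyond a replicate spread.

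In treated HepG2 every mitochondrial gene with fragments in either library was above its control on the log2 scale of (FPKM + 1). That was 36 of 36 genes, with a median log2 ratio of 0.72 against -0.17 over the 12347 genes tested, those that reached 1 FPKM in a library of the pair. How many of all genes were above 0 was not computed. The smallest differences, those of MT-TI (0.10), MT-TN (0.28) and MT-TY (0.23), turned to -0.22, -0.05 and -0.11 when the libraries were rescaled to equal sums of FPKM (TPM scale). On that scale the median of all genes was -0.45, below these 3 values. Mitochondrial genes are themselves a large part of the sums, with 173413 of 352221 FPKM in the control and 285521 of 443727 in treated HepG2. By 2-fold or more, 6 were higher and 0 lower, where 1% of all genes tested were higher and 2.14% lower. All 6 were tRNA genes, and 2 of them, MT-TV and MT-TS1, had at least 50 fragments in either library. On the deposited scale each mRNA and rRNA was below 2-fold. Under median-of-ratios scaling and with totals over nuclear genes, where the median of all genes was near 0, MT-RNR2 (log2 ratio 1.15 under both) and MT-ATP8 (1.04 under both) were past 2-fold. The number of mitochondrial genes past 2-fold was 11 under each, where the share of all genes was not computed.

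The 13 mRNAs of HepG2 lay within a narrow band of ratios, from 1.50 to 1.79. Among complex I genes, MT-ND1 was at 10516 FPKM in the control and 17945 in the treated library, a ratio of 1.71 (1.70 to 1.72). MT-ND2 was at 8692 and 14367, MT-ND3 at 4871 and 7309, MT-ND4L at 11239 and 18852, and MT-ND4 at 21084 and 34874 FPKM, with ratios of 1.65, 1.50, 1.68 and 1.65. MT-ND5 and MT-ND6, the last complex I genes in map order, were at 6672 and 10844 and at 7601 and 11999 FPKM, ratios of 1.63 and 1.58. Cytochrome b, MT-CYB, was at 6983 and 11046 FPKM (1.58). The complex IV core genes MT-CO1, MT-CO2 and MT-CO3 had ratios of 1.54, 1.64 and 1.61, from 18246 to 28056, from 15434 to 25298 and from 14760 to 23819 FPKM. For the ATP synthase genes, MT-ATP6, the proton-channel subunit, was at 16793 and 27082 FPKM (1.61), and the small subunit MT-ATP8 at 4414 and 7895 FPKM (1.79, 1.75 to 1.82).

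The rRNA genes of HepG2 differed by as much or more. MT-RNR1, the RNA of the small mitochondrial ribosomal subunit, was at 3672 FPKM in the control and 6057 in the treated library, a ratio of 1.65 (1.63 to 1.67). MT-RNR2, that of the large subunit, was at 14380.3 and 27706 FPKM, a ratio of 1.93 (1.92 to 1.93), which lay above the band of all 13 mRNAs in these libraries. Set against the summed fragments of 22 genes outside the stretch (all but MT-ND4), MT-RNR2 was 1.20 times its control share and MT-RNR1 1.03 times, while the mRNAs lay between 0.933 and 1.11 times.

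**Figure D2:**
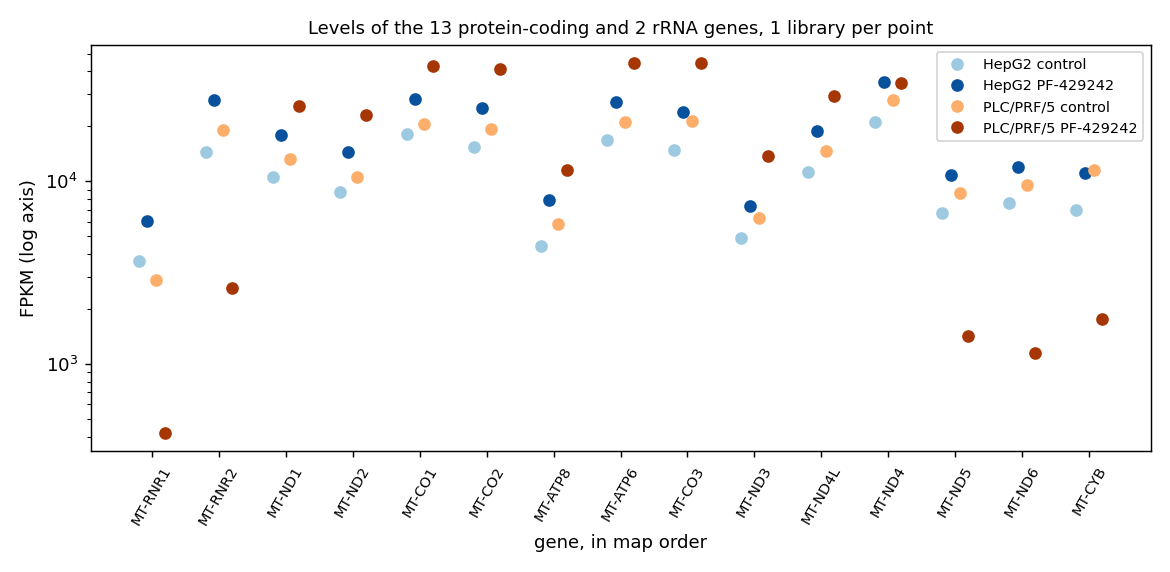
FPKM on a log axis for the 13 protein-coding and 2 rRNA genes in map order, with 1 point per library. Each treated HepG2 point lies above its control, and in treated PLC/PRF/5 the points of MT-RNR1, MT-RNR2, MT-ND5, MT-ND6 and MT-CYB drop below all other libraries while the remaining genes lie above their control.

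Outside the stretch, treated PLC/PRF/5 also had higher levels, with a larger median log2 ratio than HepG2 (0.99 against 0.73) but not for every gene. MT-ND4, MT-TQ, MT-TM and MT-TW had larger ratios in HepG2, and MT-TG and MT-TR had close ratios in both lines. In PLC/PRF/5 all 23 genes outside the stretch were above the control on the log2 scale of (FPKM + 1), with a median of 0.99 against -0.13 over all 13144 genes tested. How many of all genes were above 0 was not computed. By 2-fold or more, 10 of the 37 mitochondrial genes were higher, all outside the stretch, where 1.48% of all genes tested were higher. On the TPM scale, where the median of all genes was -0.40, MT-ND4 alone of these 23 turned, from 0.32 to -0.02. There 3 of the 37 stayed past 2-fold, and the share of all genes was not computed. Leaving MT-ND4 aside, the 9 mRNAs outside the stretch had ratios of 1.97 to 2.19, a range that did not overlap the 1.50 to 1.79 of the same genes in HepG2. The difference between the lines was not tested, and the share of all genes with such a difference was not computed.

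Complex IV mRNAs in PLC/PRF/5 were at 20633 and 42517 FPKM for MT-CO1, 19329 and 41369.5 for MT-CO2 and 21375 and 44316 for MT-CO3, with ratios of 2.06, 2.14 and 2.07. After treatment all 3 exceeded the highest HepG2 level of any mitochondrial gene, the 34874 FPKM of MT-ND4. For ATP synthase, MT-ATP6 was at 21129.5 and 44225 FPKM (2.09, 2.08 to 2.10) and MT-ATP8 at 5821 and 11483 FPKM (1.97, 1.94 to 2.004). Of complex I, MT-ND1 was at 13170.4 and 25889 FPKM (1.97), MT-ND2 at 10489 and 22935 (2.19), MT-ND3 at 6256 and 13728 (2.19) and MT-ND4L at 14684 and 29234 (1.99). Relative to the summed genes outside the stretch, these 9 mRNAs stayed between 0.947 and 1.06 times their control share. They therefore kept nearly fixed proportions to each other in this pair of libraries.

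MT-ND4 stood between both behaviours. It abuts MT-TH and shares 7 bases with MT-ND4L, and its levels in control and treated PLC/PRF/5 were 27754 and 34589 FPKM, a ratio of 1.25 (1.242 to 1.250). Against the summed genes outside the stretch its share was 0.600 times that of the control, whereas in HepG2 it was 1.03 times. At the opposite edge MT-ND1 showed no such intermediate value, with 0.947 times its control share. The deposited values are 1 number per gene, so the course of the level along MT-ND4 was not analysed here.

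**Figure D3:**
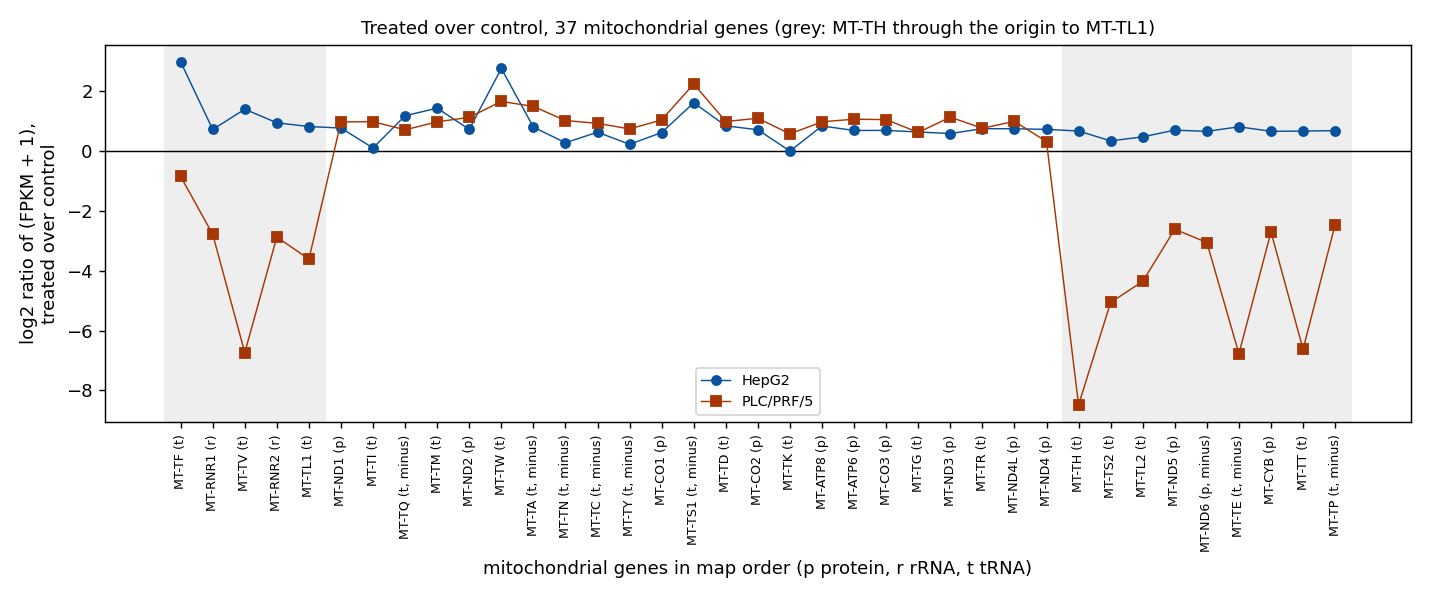
Log2 ratio of (FPKM + 1), treated over control, for the 37 genes in map order (p protein-coding, r rRNA, t tRNA, minus for the minus strand), with circles for HepG2 and squares for PLC/PRF/5 and 1 library pair per line. The HepG2 points lie at or above 0 throughout, and the PLC/PRF/5 points inside the grey stretch lie between -8.48 and -0.85 while those outside lie between 0.32 and 2.24.

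The stretch held 14 genes over 6608 bases of gene: 3 mRNAs, both rRNAs and 9 tRNAs, 3 of them on the minus strand. Outside it were 10 mRNAs and 13 tRNAs over 8808 bases, 6 on the minus strand. In PLC/PRF/5 all 14 were lower after treatment, 13 of them by 2-fold or more, where 1.82% of all genes tested were lower. The median log2 ratio of the 14 was -3.34 (-3.35 with genes at 0 set to 3 fragments), against 0.69 for the same genes in HepG2. Their share of counted fragments was 6.68% without and 0.969% with the compound in PLC/PRF/5, and 5.02% and 8.78% in HepG2. The median GC content was 41.4% inside and 43.1% outside, and both strands and all 3 gene classes were represented on each side except that no rRNA gene lies outside. MT-TF, with 8 and 3 fragments, was just short of 2-fold on the log2 scale (-0.85), and its ratio of 0.472 had an interval of 0.0807 to 1.97. The members nearest to the edges were MT-TH, at -8.48, and MT-TL1, at -3.61, inside, and MT-ND4, at 0.32, and MT-ND1, at 0.97, outside.

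Among the mRNAs of the stretch, MT-ND5 was at 6672 and 10844 FPKM in control and treated HepG2, and at 8671 and 1415 in PLC/PRF/5. MT-ND6, the only mRNA on the minus strand, was at 7601 and 11999 and at 9580 and 1150.2 FPKM. MT-CYB was at 6983 and 11046 and at 11524.5 and 1768 FPKM. The treated PLC/PRF/5 library was thus the lowest of the 4 for each, with ratios of 0.163 (0.162 to 0.165), 0.120 (0.118 to 0.123) and 0.153 (0.152 to 0.155). Relative to the summed genes outside the stretch they kept 0.0578 to 0.0786 times their control share.

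The rRNAs were low to a like degree. MT-RNR1 went from 2895 to 420 FPKM in PLC/PRF/5, a ratio of 0.145 (0.141 to 0.149). For MT-RNR2 the levels were 19152 and 2612 FPKM, a ratio of 0.136 (0.135 to 0.137). Both remained well above the level of 3 fragments, with 6801 fragments on MT-RNR1 in the treated library. In rank by FPKM MT-RNR1 was 15 in both HepG2 libraries, and 19 and 43 in control and treated PLC/PRF/5.

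Within the stretch the tRNA genes ranged far more widely than the mRNAs and rRNAs. MT-TH, the tRNA gene for histidine whose sequence opens the stretch, was at 344 and 548 FPKM in HepG2 and 357 and 0 FPKM in control and treated PLC/PRF/5. With 527 and 0 fragments it was 139-fold lower when the 0 is set to 3 fragments, and the exact interval of the ratio reached up to 0.00885. MT-TV was at 39.9, 107, 106 and 0 FPKM, 41.3-fold lower in treated PLC/PRF/5 by the same floor (interval up to 0.0301), and MT-TT at 38.1, 61.1, 97.8 and 0 FPKM, 36.5-fold lower (up to 0.0341). These 3 genes are the only members at 0 in that library. The tRNA genes for serine (MT-TS2) and leucine (MT-TL2), next to MT-TH, were at 142, 180, 132 and 2.99 FPKM and at 67.4, 94.1, 70.5 and 2.49 FPKM. Each had 3 fragments in treated PLC/PRF/5, with ratios of 0.0226 (0.00462 to 0.0673) and 0.0353 (0.00717 to 0.106).

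The remaining tRNA genes of the stretch differed widely among themselves. MT-TE, for glutamate on the minus strand, was at 81.5, 144, 202 and 0.853 FPKM, with 298 and 1 fragments in PLC/PRF/5 and a ratio of 0.00423 (0.000107 to 0.0237). MT-TL1, the last gene of the stretch, was at 537, 949, 819 and 65.95 FPKM, a ratio of 0.0806 (0.0638 to 0.101). MT-TP, for proline on the minus strand beside the control region, was at 1477, 2373, 2406 and 436 FPKM, a ratio of 0.181 (0.165 to 0.199). MT-TP thus had the highest ratio of the 13 genes past 2-fold, and it held 504 of the 598 fragments on tRNA genes of the stretch in treated PLC/PRF/5. The 9 tRNA genes pooled had a ratio of 0.121 with MT-TP and 0.0436 without it, and their median ratio was 0.0226. The pooled rRNAs stood at 0.137 and the pooled mRNAs of the stretch at 0.153. A fragment on a tRNA gene can come from a mature tRNA or from a precursor that spans it, and these values do not separate them.

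In HepG2 the same 9 tRNA genes were higher in the treated library. Among the 8 with at least 50 fragments in either library the ratios ran from 1.27 for MT-TS2 (1.02 to 1.58) to 2.68 for MT-TV (1.91 to 3.81). MT-TL2 (1.40), MT-TH (1.59), MT-TT (1.60), MT-TP (1.61), MT-TE (1.77) and MT-TL1 (1.77) lay between. MT-TF, for phenylalanine, had 0 fragments in the control and 10 in the treated library, 2.74-fold higher with the 0 set to 3 fragments, while the exact interval of the ratio began at 1.84.

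**Figure D4:**
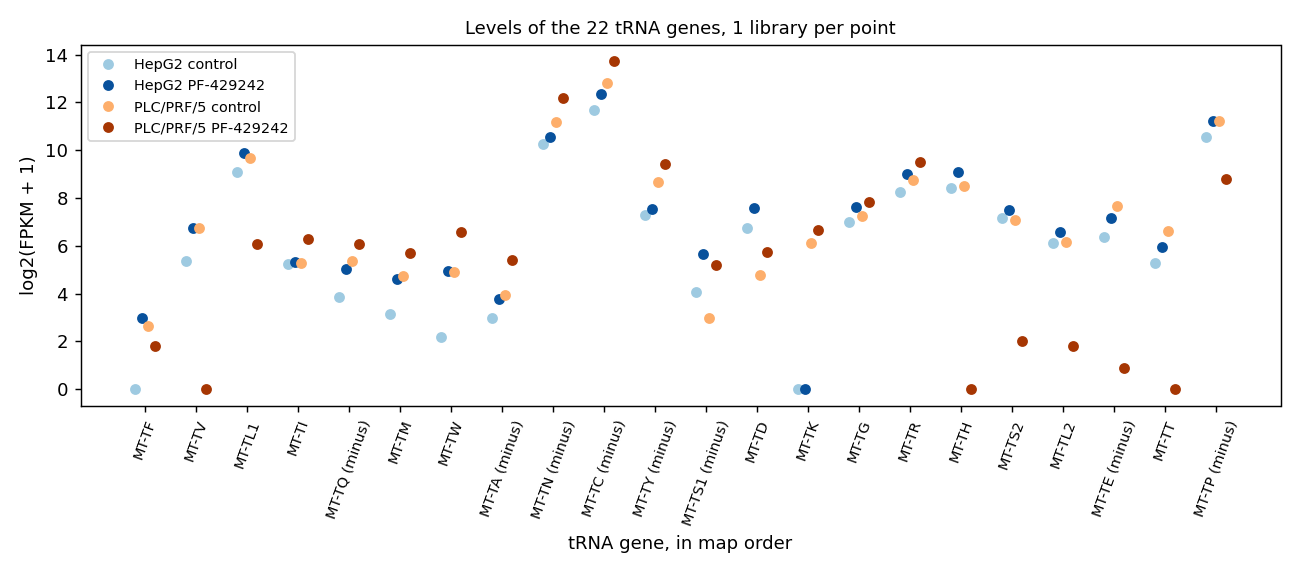
Log2 of (FPKM + 1) for the 22 tRNA genes in map order, 1 point per library. The 3 highest genes in both HepG2 libraries and in untreated PLC/PRF/5, MT-TC, MT-TN and MT-TP, are on the minus strand, MT-TK is at 0 in both HepG2 libraries, and treated PLC/PRF/5 is at 0 for MT-TV, MT-TH and MT-TT.

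Outside the stretch the 13 tRNA genes were higher in treated PLC/PRF/5 without exception, with ratios from 1.50 to 5.29. The most abundant was MT-TC, for cysteine, at 3322 and 5145 FPKM in control and treated HepG2 and 7133 and 13561 in PLC/PRF/5, ratios of 1.55 (1.49 to 1.61) and 1.90 (1.85 to 1.95). MT-TN, for asparagine, was at 1236, 1499.7, 2298 and 4666 FPKM (1.21 and 2.03), and MT-TY, for tyrosine, at 156, 182, 408 and 683 FPKM (1.17 and 1.67). The HepG2 ratio of MT-TY had an interval of 0.959 to 1.43, which includes 1. These 3 genes lie side by side on the minus strand between MT-ND2 and MT-CO1, and MT-TA, for alanine, and MT-TW, for tryptophan, precede them.

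Of the plus-strand tRNA genes outside, MT-TR, for arginine, was at 303, 509.5, 431 and 732 FPKM, with ratios of 1.68 in HepG2 and 1.70 in PLC/PRF/5. MT-TG, for glycine, was at 126, 197, 149 and 229 FPKM (1.56 and 1.55). The ratios of both genes were close in the 2 lines. MT-TD, for aspartate, was at 105, 189, 26.1 and 52.8 FPKM (1.80 and 2.02). MT-TI, for isoleucine, was at 36.4, 39.2, 37.9 and 75.95 FPKM, a ratio of 1.08 in HepG2 whose interval of 0.707 to 1.65 includes 1, and 2.0015 (1.42 to 2.85) in PLC/PRF/5. On the TPM scale the HepG2 difference of MT-TI was negative, as given above.

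Rarer tRNA genes had wide counting intervals. MT-TQ, for glutamine, was at 13.3, 31.4, 39.6 and 65.4 FPKM (2.36, 1.31 to 4.47, in HepG2 and 1.65, 1.17 to 2.34, in PLC/PRF/5), and MT-TM, for methionine, at 7.91, 23.1, 25.4 and 51.1 FPKM (2.92, 1.36 to 6.96, and 2.01, 1.31 to 3.12). MT-TW was at 3.52, 29.6, 28.9 and 93.5 FPKM, from 4, 41, 42 and 108 fragments. Its ratios were 8.42 (3.05 to 32.4) in HepG2 and 3.24 (2.25 to 4.74) in PLC/PRF/5. MT-TS1, a serine tRNA gene, was at 15.6, 49.9, 6.78 and 35.8 FPKM (3.20, 1.88 to 5.70, and 5.29, 2.61 to 11.8). MT-TA had 8, 18, 21 and 49 fragments. The lysine tRNA gene MT-TK had 0 fragments in both HepG2 libraries and 101 and 120 in PLC/PRF/5, at 67.5 and 101 FPKM, a ratio of 1.50 (1.14 to 1.97).

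By strand, plus-strand genes took 16.2% and 26.9% of counted fragments in control and treated HepG2 and 20.7% and 27.999% in PLC/PRF/5. Minus-strand genes took 0.442% and 0.694%, and 0.588% and 0.192%. The minus-strand share in PLC/PRF/5 turned on MT-ND6, which lies in the stretch, since the 8 minus-strand tRNA genes together went from 0.0847% to 0.132%. The low values inside the stretch and the higher values outside it were seen for genes annotated on either strand. Whether the fragments came from RNA of the annotated strand is not known.

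The controls themselves differed. On the log2 scale of (FPKM + 1), 33 of the 37 genes were lower in HepG2 than in PLC/PRF/5, with medians of -0.51 inside and -0.40 outside the stretch against -0.06 over all 13861 genes tested. How many of all genes were below 0 was not computed. By 2-fold or more, 2 were higher, where 10% of all genes tested were higher, and 10 were lower, where 13.1% were. On the TPM scale 4 of those below 0 were above it, with MT-TI at 0.15, MT-CO1 at 0.04, MT-TH at 0.16 and MT-TL2 at 0.15. The median of all genes was 0.14 on that scale. All 13 mRNAs had ratios below 1, from 0.606 (0.602 to 0.610) for MT-CYB to 0.884 (0.881 to 0.888) for MT-CO1. The rRNAs were split, with MT-RNR1 at 1.27 (1.25 to 1.28) and MT-RNR2 at 0.751 (0.748 to 0.754). The level of MT-RNR2 over that of MT-RNR1 therefore differed between these control libraries, and with 1 library per line a difference between the lines was not tested.

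The tRNA genes spread most between the controls. The minus-strand genes MT-TC, MT-TN and MT-TY had HepG2 over PLC/PRF/5 ratios of 0.466, 0.538 and 0.382, MT-TE 0.403 and MT-TP 0.614. On the plus strand MT-TV was at 0.377, MT-TT at 0.389 and MT-TW at 0.122 (0.0317 to 0.336). MT-TD went the other way, at 4.01 (2.76 to 5.93), from 119 fragments in HepG2 and 38 in PLC/PRF/5, and MT-TS1 was at 2.30 (1.01 to 5.58). MT-TK was 26.3-fold lower in the HepG2 control by the floor of 3 fragments (interval up to 0.0476). MT-TD and MT-TK flank MT-CO2, whose own ratio was 0.798, so neighbouring tRNA genes of opposite line difference enclosed an mRNA close to the other mRNAs.

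**Figure D5:**
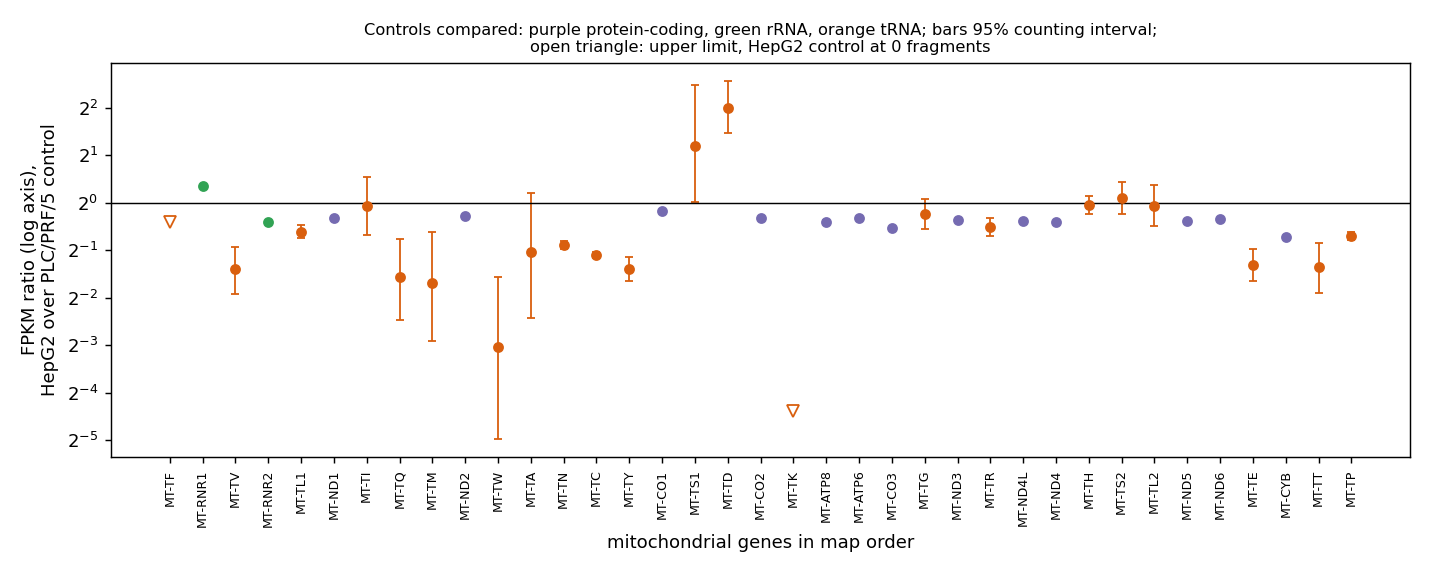
HepG2 control over PLC/PRF/5 control FPKM ratio on a log axis for the 37 genes in map order, with 95% counting intervals as bars and open triangles for the upper limit of the interval where the HepG2 control had 0 fragments. The protein-coding genes lie between 0.606 and 0.884, MT-RNR1 at 1.27 and MT-TD at 4.01, and the other tRNA genes spread down to MT-TK, whose upper limit is 0.0476.

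A shared effect of treatment was fitted across the lines with limma. The residual spread of a gene is its difference in response between HepG2 and PLC/PRF/5, with 1 residual degree of freedom. That spread is moderated by limma towards a trend over all genes, with 3.04 prior degrees of freedom. The intervals and p-values therefore do not rest on the line difference of each gene alone. Of 12838 genes tested, 0 (0%) passed an adjusted p under 0.05 (limma, Benjamini-Hochberg), with 2488 at an unadjusted p under 0.05. None of the 37 mitochondrial genes passed, the lowest adjusted p was 0.193 (limma), and 11 had an unadjusted p under 0.05, all outside the stretch. The gene with the lowest unadjusted p was MT-TD, with a shared log2 difference of 0.92 (95% interval 0.70 to 1.13), above 0 in both lines. Genes of the stretch, with opposite signs in the lines, had wide intervals, such as -3.49 to 1.43 for MT-RNR1.

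Nuclear copies of mitochondrial genes bear on the levels outside the stretch, since fragments from near-identical sequences can be assigned to either place. Of 110 annotated nuclear pseudogenes of mitochondrial genes, 12 reached 1 FPKM in at least 2 libraries. Together they held 0.243%, 0.423%, 0.957% and 1.93% of counted fragments, and nearly all of that belonged to copies of genes outside the stretch (40463, 85862, 204523 and 328347 fragments, against 100, 204, 182 and 135 for copies of genes inside it). The main copies lie side by side on chromosome 1 of GRCh38. MTATP6P1 (chr1:633696-634376), 98.5% identical to MT-ATP6, was at 3332, 5769, 4429 and 9078 FPKM, and MTND1P23 (chr1:629062-629433), 99.1% identical to the part of MT-ND1 it aligns with, at 7.23, 13.2, 4540.3 and 9869 FPKM.

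The copies of MT-CO1, MT-CO2 and MT-ND2 were MTCO1P12 at 32.7, 74.6, 2753 and 5468 FPKM, MTCO2P12 at 3.60, 5.62, 545 and 1154 FPKM, and MTND2P28 at 77.3, 135, 183 and 151 FPKM. Of these 5 copies, MTND1P23, MTCO1P12 and MTCO2P12 were far lower in HepG2 than in PLC/PRF/5 but above 1 FPKM, while MTATP6P1 was high in both lines. With the fragments of each copy added to its mitochondrial gene, an alternative chosen after seeing the data, the HepG2 over PLC/PRF/5 control ratio moved from 0.798 to 0.704 for MT-ND1 and from 0.884 to 0.782 for MT-CO1. The treated over control ratios moved little, from 1.97 to 1.99 for MT-ND1 and from 2.19 to 2.16 for MT-ND2 in PLC/PRF/5.

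Nuclear genes of mitochondrial RNA metabolism stayed near the median of all genes in both lines. Of 48 listed genes for mitochondrial transcription, RNA processing and RNA stability, 45 were measured. In HepG2 9 were above and 36 below 0 (median log2 ratio -0.17, against -0.17 over all genes tested). In PLC/PRF/5 11 were above and 34 below 0 (median -0.07, against -0.13). The share of all genes below 0 was not computed. None of the list was past 2-fold in either line. Of all genes tested, 1% were higher and 2.14% lower in HepG2, and 1.48% higher and 1.82% lower in PLC/PRF/5. In the shared limma fit 0 of the list were called, and 0 of all genes tested. The lowest by mean over both lines were MPV17L2, a mitochondrial ribosome assembly factor (-0.67 in HepG2 and -0.25 in PLC/PRF/5), the transcription termination factor gene MTERF1 (-0.41 and -0.28) and HSD17B10, a subunit of mitochondrial RNase P (-0.33 and -0.34). At the other end were MTERF4, of ribosome assembly (0.05 and 0.07), PRORP, the nuclease of RNase P (0.09 and -0.00), and the DNA helicase gene TWNK (0.03 and 0.06).

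Nuclear-encoded respiratory subunits, the partners of the mitochondrial mRNAs in complexes I to V, were mostly slightly below their control, as was the median of all genes. The share of all genes below 0 was not computed. Of 76 listed, 73 were measured, with 5 above and 68 below 0 in HepG2 (median -0.23) and 8 above and 65 below 0 in PLC/PRF/5 (median -0.19), against -0.17 and -0.13 over all genes tested. None of the subunits was past 2-fold, beside the shares of all genes given above, and 0 were called by limma. The lowest were COX8A of complex IV (-0.55 in HepG2 and -0.48 in PLC/PRF/5), NDUFB3 (-0.54 and -0.36) and NDUFA8 (-0.35 and -0.53) of complex I. The highest were NDUFV2 (0.20 and -0.00) and NDUFS6 (0.07 and 0.08) of complex I and UQCRC2 of complex III (-0.18 and 0.30). NDUFV2 was below 1 FPKM in both HepG2 libraries, at 0.706 and 0.961. The summed level of the listed subunits was 1663 and 1374 FPKM in control and treated HepG2 and 1969 and 1701 FPKM in PLC/PRF/5. That of the 13 mitochondrial mRNAs went from 147304 to 239386 and from 190419 to 314619 FPKM.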

How the data were processed

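RNA-seq values of 4 libraries, 1 per group, were analysed. The authors deposited FPKM for 32479 Ensembl genes, made after alignment with TopHat2 to GRCh38, per the submitters' processing notes. For the counting program, annotation release, strand setting and RNA selection, nothing is given in the sources used here.

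Genes were matched to GENCODE 29, which held 32354 of them. Fragments were recovered from FPKM and the union of exons. In 24452 genes (75.3%) they were whole in all libraries within 0.001. Ratios carry exact Clopper-Pearson intervals of fragments. A gene at 0 was set to 3 fragments for a fold difference, a fixed floor that is not the limit of the exact interval, which is given beside it. Log2 ratios used FPKM + 1, which understates the change of low genes, and counts used at least 1 FPKM in either library and 2-fold. The shared effect came from limma 3.58.1, run in R 4.3.3 (eBayes with trend, line as a block, at least 1 FPKM in at least 2 libraries, Benjamini-Hochberg). The fit was also run on simulated data without a difference in response between the lines. That run cannot check the real fit, whose residual spread is this difference. Scripts ran in Python 3.11.15 with scipy 1.17.1.

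The members and lists were chosen with earlier results of these data known. Named were all 37 genes, with levels for tRNA genes of at least 50 fragments in a library, up to 3 genes per direction of each nuclear list by mean log2 ratio, and the 5 nuclear copies of highest mean FPKM. Alternatives were pseudocounts of 0.1 and 5, other scalings, filters and folds, and limma settings.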

Additional observations from a re-analysis of the deposited data

Results flagged for a closer look

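All 14 genes of the stretch from MT-TH through the origin to MT-TL1 were above their control in HepG2 and below it in PLC/PRF/5. With 1 library per group the difference between the lines was not tested, and the stretch was known before these values were computed. On the log2 scale of (FPKM + 1), the rRNA genes MT-RNR1 and MT-RNR2 were at -2.78 and -2.87 in PLC/PRF/5 and at 0.72 and 0.95 in HepG2. Of the mRNAs, MT-ND5 was at -2.61, MT-ND6 at -3.06 and MT-CYB at -2.70, against 0.70, 0.66 and 0.66. The tRNA genes downstream of MT-ND4 were at -8.48 (MT-TH), -5.06 (MT-TS2) and -4.36 (MT-TL2), against 0.67, 0.34 and 0.48 in HepG2. MT-TE, MT-TT and MT-TP were at -6.77, -6.63 and -2.46, against 0.81, 0.67 and 0.68. At the start of the map, MT-TF was at -0.85, MT-TV at -6.74 and MT-TL1 at -3.61, against 2.99, 1.40 and 0.82, and the values of MT-TF rest on at most 10 fragments in any library.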

How the results depend on the processing

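No median inside or outside the stretch changed sign under the alternatives run, and the single genes that did, on the TPM scale, are given with their levels. A pseudocount of 5 left 1 gene higher between the controls. On the TPM scale, which shifted the median of all genes to -0.45 in HepG2, -0.40 in PLC/PRF/5 and 0.14 between the controls, the HepG2 medians were 0.36 inside and 0.39 outside the stretch, 3 genes were higher by 2-fold in PLC/PRF/5, and the medians between controls were -0.29 inside and -0.18 outside. Median-of-ratios scaling and totals over nuclear genes each gave 11 genes higher in HepG2 with medians of 0.90 inside and 0.93 outside, and 17 higher in PLC/PRF/5. The median outside between controls was -0.37 under the first and -0.48 under the second. With at least 50 fragments in either library, 2 genes were higher in HepG2 (median outside 0.70) and 1 between the controls (median outside -0.39). At 1.5-fold 31 genes were higher in HepG2 and 21 in PLC/PRF/5. At 4-fold 2 were higher in HepG2, 1 in PLC/PRF/5 and 0 between the controls, with 3 lower there. The share of all genes past the fold was computed only at 2-fold on the deposited scale. Counts at other folds, filters and scalings therefore have no background beside them. Summing fragments with the chromosome 1 pseudogene moved 9 of 18 ratios beyond their counting interval. All 6 other limma settings also called 0 genes, with a lowest adjusted p for mitochondrial genes of 0.216 to 0.99996. The limma fit pairs each treated library with the control of its line. Without that block 0 genes were called as well, and 1 of the 37 mitochondrial genes had an unadjusted p under 0.05 (limma) in place of 11. Over all 12838 genes tested the number also fell, to 112 in place of 2488. With 1 library per group none could be left out. tRNA values are limited by depth, with 12 to 16 of 22 genes at 50 fragments or more per library.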
